A study of Mus musculus with 16 samples.

Results

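Fos, Fosb, Jun, Junb, Egr1, Ier2, Atf3 and the 3 Nr4a genes were followed in the muscle layer of the mouse colon. They were taken by gene name from a table of 56748 genes. All 10 were found, each in a single row, and all 10 passed the filter on low counts in each of the 6 comparisons. The question was whether the Ednrb genotype, the colon segment or single libraries set their levels. Bulk RNA-seq was made from the longitudinal muscle and myenteric plexus (LMMP), the outer muscle of the gut with the nerve plexus beneath it, microdissected from mice aged 2 to 4 weeks on a hybrid C57BL6/J-129Sv background. HSCR mice were Ednrb-/- (homozygous for the Ednrb tm1Ywa allele) and stood as a model of Hirschsprung disease, in which the distal colon lacks ganglia. WT littermates were Ednrb+/+. Proximal and distal colon gave 4 libraries per genotype, 16 in all. In HSCR mice the proximal ganglionic segment was marked out by its distension. The titles of the distal libraries name distal colon while their tissue labels name proximal colon, and the titles were used here. In the library names, all 4 libraries numbered 1 share a code and all 4 numbered 2 share another, across genotype and segment, while the names of libraries 3 and 4 carry either of a pair of other prefixes. No label says whether a code marks a mouse, a litter or a day. If libraries of both segments came from the same mice, p values for genotype over all 16 libraries may be too small. Those that compare segments may then err either way.

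Immediate early genes are transcribed within minutes of a stimulus from machinery already present in the cell, without new protein synthesis, and their mRNAs are short-lived. In muscle and nerve they respond to calcium entry, growth factors, stretch and injury, acting largely through serum response factor and the cAMP response element binding protein. Fos and Jun proteins pair to form the transcription factor AP-1, Egr1 is a zinc finger factor, and the NR4A proteins are nuclear receptors that act without a known hormone ligand.

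The stretches upstream of 5 members are shown because these genes span the patterns described below: Fos and Fosb varied most from library to library, Junb and Nr4a1 were lowest in the same library of each group as Fos, and Nr4a3 had the largest share of its spread between genotypes. RefSeq promoter entries on build GRCm38.p6 were used for 8 of the 10 members. Ier2 had no entry and Egr1 was left out of the search, so the motif counts below cover neither gene. The 250 bases before the annotated start are given from 5′ to 3′ on the gene's own strand. The Fos window lies at chr12:85473640-85473889 on the plus strand, Fosb at chr7:19310046-19310295 on the minus strand and Junb at chr8:84978749-84978998 on the minus strand. The Nr4a1 window lies at chr15:101266596-101266845 on the plus strand and Nr4a3 at chr4:48045055-48045304 on the plus strand. Capitals mark the core of the cAMP response element (TGACG), an Egr motif (GCGNGGGCG) and a TATA box (TATAAA), each on either strand.
Fos: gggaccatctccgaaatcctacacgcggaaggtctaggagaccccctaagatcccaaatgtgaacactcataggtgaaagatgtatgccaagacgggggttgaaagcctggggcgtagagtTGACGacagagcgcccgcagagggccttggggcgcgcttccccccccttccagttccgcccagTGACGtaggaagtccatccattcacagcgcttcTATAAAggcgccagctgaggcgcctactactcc
Fosb: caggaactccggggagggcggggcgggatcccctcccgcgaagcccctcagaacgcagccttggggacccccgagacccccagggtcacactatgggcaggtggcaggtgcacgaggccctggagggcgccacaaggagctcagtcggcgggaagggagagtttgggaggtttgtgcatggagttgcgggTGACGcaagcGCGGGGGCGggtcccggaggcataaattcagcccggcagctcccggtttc
Junb: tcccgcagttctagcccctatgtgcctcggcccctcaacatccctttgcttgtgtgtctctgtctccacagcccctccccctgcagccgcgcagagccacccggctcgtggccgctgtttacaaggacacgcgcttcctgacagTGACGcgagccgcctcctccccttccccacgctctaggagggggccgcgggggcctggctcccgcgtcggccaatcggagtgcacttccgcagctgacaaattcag
Nr4a1: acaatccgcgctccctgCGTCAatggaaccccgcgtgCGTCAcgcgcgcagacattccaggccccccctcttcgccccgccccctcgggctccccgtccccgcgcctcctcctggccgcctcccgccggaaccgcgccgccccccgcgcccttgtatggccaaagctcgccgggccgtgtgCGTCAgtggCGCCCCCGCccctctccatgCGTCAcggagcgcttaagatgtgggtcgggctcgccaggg
Nr4a3: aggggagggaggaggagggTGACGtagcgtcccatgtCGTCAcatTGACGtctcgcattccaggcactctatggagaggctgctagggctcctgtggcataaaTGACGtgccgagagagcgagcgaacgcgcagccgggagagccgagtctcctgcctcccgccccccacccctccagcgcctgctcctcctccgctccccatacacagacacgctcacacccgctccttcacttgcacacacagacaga
The TGACG core was found upstream of 7 of the 8 genes (all but Jun), with 4 matches each for Nr4a1, Nr4a2 and Nr4a3 and 2 for Fos, and in 17.8% of all 32841 promoter windows of the same length. This core was searched after the windows had been read. The Egr motif was found upstream of Fosb, Nr4a1 and Nr4a2 and in 4.70% of all windows, and the TATA box upstream of Fos and Nr4a2 and in 12.4%. None of the 8 windows held the full element TGACGTCA (1.55% of all windows), the AP-1 motif TGANTCA (6.75%) or a CArG box, the serum response motif (1.47%). The core TGACG lies within TGACGTCA, so these 2 searches overlap. These are matches of letters within 250 bases, and longer reaches were not searched.

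The libraries held 21384372 to 45831881 counts. Mitochondrial genes took 7.32 to 49.8% of them in WT proximal, 5.56 to 20.1% in HSCR proximal, 4.32 to 23.7% in WT distal and 5.93 to 11.3% in HSCR distal libraries, with WT proximal libraries 1 and 4 (49.8 and 34.6%) the highest of all. Other libraries stood apart as well. Hoxd13, a marker of the distal hindgut picked after its values were seen, read 125 CPM (counts scaled to library size) in the library labelled HSCR proximal 1 against 0.662 to 23.9 CPM in the other 7 proximal libraries. It read 0.615 CPM in the library labelled HSCR distal 1 against 13.97 to 219.5 CPM in the other 7 distal libraries, so by this gene both went against their segment labels. HSCR distal library 4, at 13.97 CPM, also lay within the proximal range. The mean log2 CPM of 7 posterior Hox genes was 4.28 in the library labelled HSCR proximal 1, against 2.19 to 3.43 in the other proximal libraries. In the library labelled HSCR distal 1 it was 3.47, within the 2.996 to 4.17 of the other distal libraries. Ednrb, the disrupted gene, read 33.8 to 67.1 CPM in WT proximal, 7.84 to 37.4 in HSCR proximal, 11.8 to 43.0 in WT distal and 5.43 to 94.8 CPM in HSCR distal libraries. The highest of all 16 was the library labelled HSCR distal 1, so that the gene's level, counted over the whole gene, did not separate the genotypes. HSCR proximal library 2 held a summed 4379 CPM of the 8 smooth muscle markers, against 23680 to 93640 CPM in the other 15, and the most of the 10 epithelial markers, 15910 CPM. The 9 neuron markers summed to 60.3 and 102.9 CPM in the libraries labelled HSCR proximal 1 and 2, but to 1000 and 915 CPM in HSCR proximal libraries 3 and 4. Among WT libraries, distal library 1 was also low, at 81.0 CPM of them. Main results are given with and without the libraries that stood apart where these changed them. In addition, 5 markers of pancreatic acinar cells summed to 533 CPM in WT distal library 2 and 95.3 CPM in HSCR distal library 3, with none at 0. They summed to 3.62 to 52.7 CPM in the rest. Fits without these libraries are given for some comparisons only, and the part of such tissue in the members' levels was not tested.

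Fos (ENSMUSG00000021250, chr12:85520664-85524047 in build mm39, plus strand), the AP-1 subunit most often used as a sign of recent stimulation, read 212, 13.3, 132 and 69.3 CPM in WT proximal libraries 1 to 4 and 1953, 58.8, 245 and 389 CPM in the libraries labelled HSCR proximal 1 to 4. Fos in the distal colon read 196, 2.64, 774 and 2416 CPM in WT and 279, 17.0, 638 and 318 CPM in the libraries labelled HSCR distal 1 to 4. Library 2 was the lowest in every group, and the groups of each segment overlapped. Across the 16 libraries Fos ran over a 916-fold range, from WT distal library 2 to WT distal library 4 of the same group.

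Fosb (ENSMUSG00000003545, chr7:19036621-19043976 in build mm39, minus strand), a close relative of Fos, read 9.90, 6.75, 14.04 and 6.74 CPM in WT proximal and 615, 1.00, 24.5 and 40.6 CPM in HSCR proximal libraries. Fosb in the distal colon read 19.7, 7.47, 84.7 and 666 CPM in WT and 54.7, 0.656, 120.2 and 36.8 CPM in HSCR. WT proximal libraries were close together, whereas in HSCR proximal colon 90.3% of the group's summed CPM came from the library labelled HSCR proximal 1. In WT distal colon 85.6% came from library 4.

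Jun (ENSMUSG00000052684, chr4:94937271-94940459 in build mm39, minus strand), the partner that can also pair with itself, read 137, 150, 221 and 149 CPM in WT proximal and 767, 224, 268 and 252 CPM in HSCR proximal libraries. Here the proximal groups did not overlap, although the lowest HSCR library (224 CPM) lay next to the highest WT library (221 CPM). Jun in the distal colon read 115, 87.4, 448 and 1430 CPM in WT and 163, 89.6, 558 and 655 CPM in HSCR, and the groups overlapped.

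Junb (ENSMUSG00000052837, chr8:85701113-85705347 in build mm39, minus strand), a Jun family member that can restrain Jun, read 66.9, 9.72, 32.9 and 29.8 CPM in WT proximal and 603, 65.7, 89.4 and 219 CPM in HSCR proximal libraries. Only WT proximal library 1 reached into the HSCR range. Junb in the distal colon read 79.7, 9.21, 296 and 602 CPM in WT and 109, 22.2, 322 and 178 CPM in HSCR, and the groups overlapped.

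Atf3 (ENSMUSG00000026628, chr1:190902493-190950236 in build mm39, minus strand), a stress-induced bZIP factor and injury marker in neurons, read 34.8, 82.8, 14.8 and 11.9 CPM in WT proximal and 189, 20.5, 31.2 and 18.6 CPM in HSCR proximal libraries. Atf3 in the distal colon read 40.6, 8.65, 30.1 and 273 CPM in WT and 15.1, 9.04, 37.4 and 25.5 CPM in HSCR. Both segments overlapped, and Atf3 departed from the AP-1 genes in WT proximal colon, where library 2 was the highest.

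Egr1 (ENSMUSG00000038418, chr18:34992876-34998037 in build mm39, plus strand), which switches on growth and matrix genes, read 152, 26.5, 79.5 and 74.7 CPM in WT proximal and 1833, 38.6, 90.9 and 253 CPM in HSCR proximal libraries. Egr1 in the distal colon read 171, 33.9, 285 and 884 CPM in WT and 257, 21.3, 226 and 134 CPM in HSCR. The library labelled HSCR proximal 1 held 20.2 times the median of the other 3 libraries of its group, and library 2 was again the lowest of every group.

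Ier2 (ENSMUSG00000053560, chr8:85387960-85389483 in build mm39, minus strand), a small nuclear protein of the same early response, read 83.6, 36.0, 32.3 and 27.5 CPM in WT proximal and 319, 137, 64.9 and 105 CPM in HSCR proximal libraries. Ier2 in the distal colon read 84.3, 25.9, 129 and 332 CPM in WT and 79.3, 34.7, 153 and 77.2 CPM in HSCR. Its proximal groups met only through WT proximal library 1, and its range over the 16 libraries, 12.8-fold, was the narrowest of the 10.

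Nr4a1 (ENSMUSG00000023034, chr15:101152150-101172676 in build mm39, plus strand), the NR4A receptor induced most widely, read 99.5, 52.5, 120.4 and 57.7 CPM in WT proximal and 241, 6.05, 116 and 108 CPM in HSCR proximal libraries. Nr4a1 in the distal colon read 42.6, 40.2, 82.0 and 1033 CPM in WT and 57.0, 14.6, 139 and 49.1 CPM in HSCR. WT distal library 4 alone held 86.2% of its group's summed CPM, and both segments overlapped.

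Nr4a2 (ENSMUSG00000026826, chr2:56996842-57014015 in build mm39, minus strand), known for its part in dopamine neurons, read 12.1, 5.17, 13.4 and 9.12 CPM in WT proximal and 9.72, 1.35, 12.9 and 11.97 CPM in HSCR proximal libraries. Nr4a2 in the distal colon read 10.9, 5.84, 5.48 and 54.3 CPM in WT and 5.62, 3.79, 16.6 and 9.23 CPM in HSCR. Apart from WT distal library 4, none exceeded 16.6 CPM, and the groups overlapped.

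Nr4a3 (ENSMUSG00000028341, chr4:48045153-48086447 in build mm39, plus strand), the third receptor of the family, read 20.7, 6.05, 10.96 and 8.43 CPM in WT proximal and 3.92, 1.59, 6.62 and 13.4 CPM in HSCR proximal libraries. Nr4a3 in the distal colon read 32.8, 10.9, 17.6 and 55.8 CPM in WT and 1.90, 4.89, 5.65 and 8.29 CPM in HSCR. The distal groups did not overlap and the proximal groups did. Of the 8 libraries above the median of all 16, 7 were WT.

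**Figure D1:**
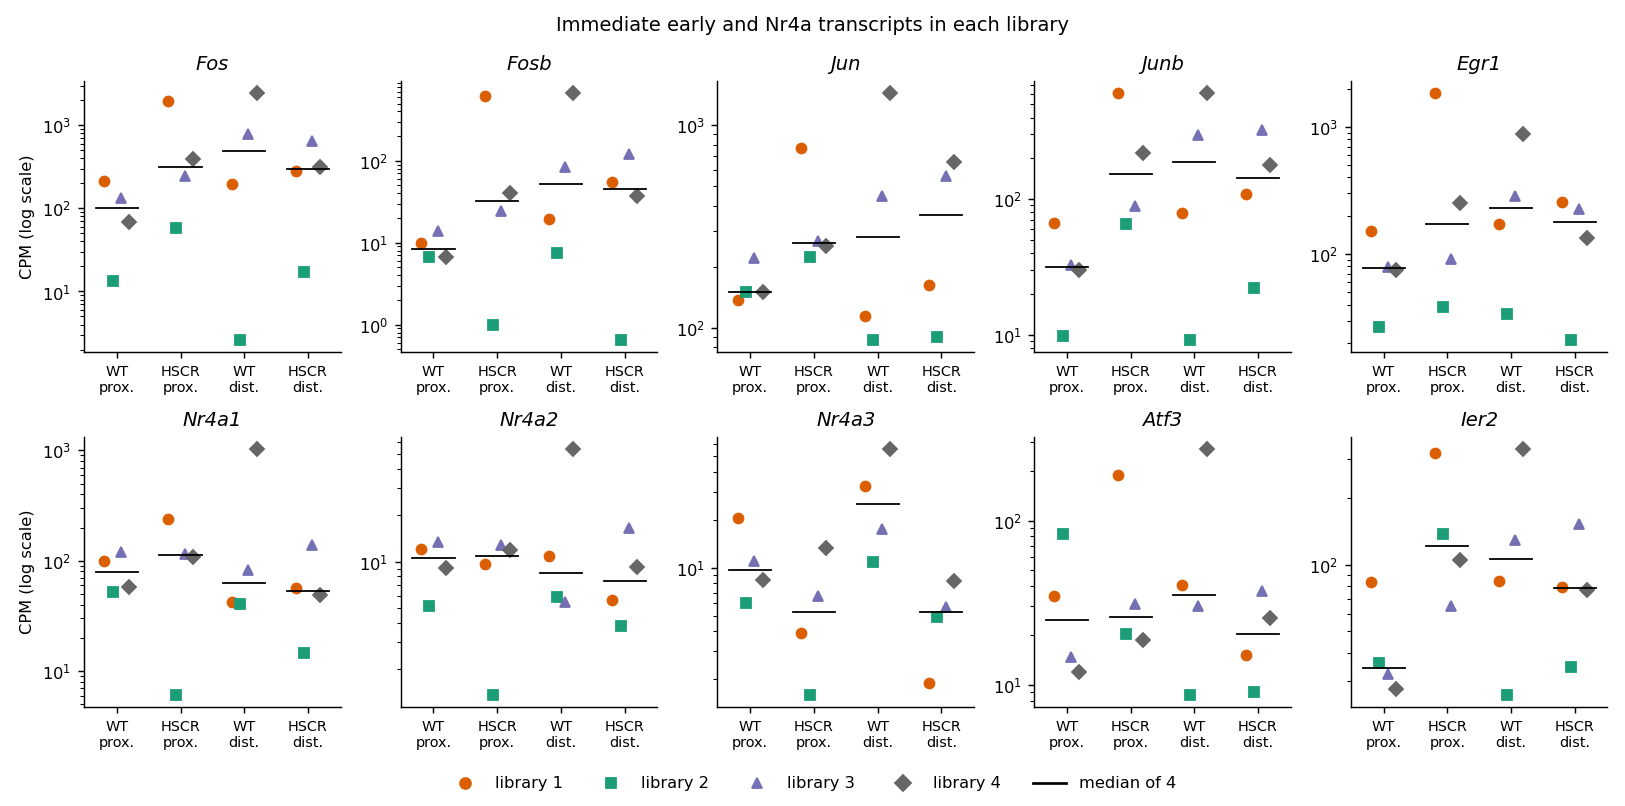
CPM of the 10 genes on a log axis in WT and HSCR, proximal and distal colon. Each point is a library, coloured by library number, and each line is the median of 4. WT distal library 4 is the highest of its group in all 10 panels, and the library labelled HSCR proximal 1 is the highest of its group in 8.

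Per length, Fos was the most abundant member with a median of 95.7 FPKM (fragments scaled to gene length and library size) over the 16 libraries, ahead of Jun at 69.7 and Ier2 at 54.3 FPKM. Junb (36.4), Egr1 (31.6), Nr4a1 (19.2) and Atf3 (12.2 FPKM) followed. Fosb (3.495), Nr4a2 (2.26) and Nr4a3 (1.35 FPKM) were the least abundant. The SD of log2 FPKM over the libraries ran from 1.02 for Nr4a2 to 2.56 for Fos, and each step between neighbours in this order was smaller than the larger SD of the pair.

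By share of the spread, single libraries stood out about as much for the members as for all genes. The library farthest from its group mean held a median of 28.3% of a member's spread within groups (20.9 to 39.2%). The median over all genes was 27.5%, and 5 of 10 members lay above it. WT distal library 4 was the highest of its group for 10 of 10 members and the highest of all 16 for 8. It was so for 31.2% and 6.73% of all 18619 genes tested. Over the median of the other 3 WT distal libraries it held 33.9 times as much Fosb, 24.2 times as much Nr4a1, 12.48 times as much Jun and 12.4 times as much Fos. The library labelled HSCR proximal 1 was the highest of its group for 8 of 10 members (24.4% of all genes) and held 25.2 times as much Fosb, 9.22 times as much Atf3 and 7.99 times as much Fos as the median of the other 3. For Nr4a2 and Nr4a3 the same ratios were 0.812 and 0.592, so the high level of that library did not extend to them.

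Low levels fell on the libraries numbered 2. Fos, Junb, Egr1 and Nr4a1 were lowest in library 2 in all 4 groups, that is 40% of the members against 2.202% of all genes tested. Fosb, Jun, Nr4a2 and Nr4a3 were lowest there in 3 groups, and Atf3 and Ier2 in 2. Library number accounted for a median of 51.6% of the members' spread within groups, from 12.3% for Atf3 to 72.9% for Fos, against 31.8% over all genes. The names of the libraries numbered 2 share a code whose meaning no label gives, and all 16 libraries carry the same batch label. The 8 smooth muscle markers summed to 30570, 4379, 23680 and 32440 CPM in the libraries numbered 2 and to 29120 to 93640 CPM in the other 12. The part of muscle content in these levels was not tested.

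The means of the 4 groups accounted for a median of 11.7% of the members' spread in log2 CPM over 16 libraries, against 19.4% over all genes tested. The genotype alone accounted for a median of 4.77% (5.07% over all genes), with 0.047% for Fosb, 1.09% for Atf3, 1.16% for Egr1 and 12.3% for Junb. Nr4a3 had the largest shares, at 44.5% for genotype and 55.5% for the 4 groups. Segment accounted for 0.014 to 4.73% and the genotype by segment term for 0.127 to 21.8%, the latter for Ier2. Within groups the SD of log2 CPM had a median of 1.64 over the members, from 1.01 for Nr4a3 to 2.90 for Fosb, against 0.88 over all genes.

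**Figure D2:**
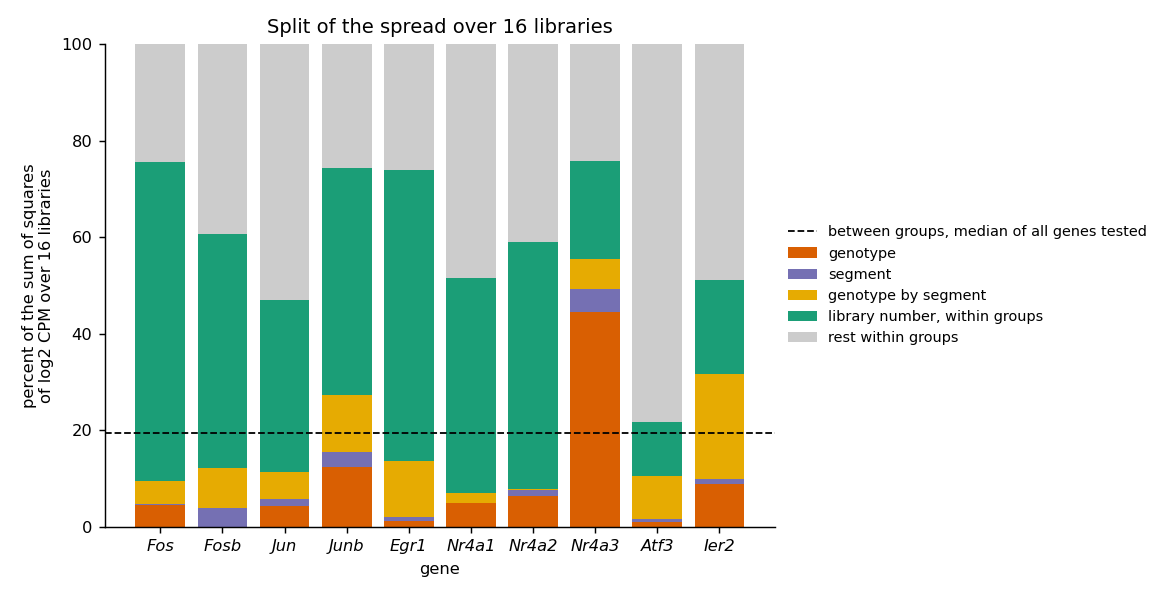
Percent of the sum of squares of log2 CPM over 16 libraries for each gene, split into genotype, segment, their interaction, library number within groups and the rest within groups. The dashed line is the median over all genes tested of the share between the 4 groups, 19.4%, which Junb, Nr4a3 and Ier2 exceed.

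The proximal colon of HSCR mice was compared with that of WT littermates first. The comparisons share groups, so that each library enters 1 genotype and 1 segment comparison. Of the 10 members 8 had log2 fold changes above 0, with a median of 1.48 against 0.04 over the 16664 genes tested. No gene was called at an adjusted p under 0.05 by edgeR's quasi-likelihood test (0% of genes), and the adjusted p of the members lay between 0.691 and 0.971. Before adjustment 6 members passed p under 0.05 on the higher side, as did 2.48% of all genes, and 0 passed on the lower side, as did 4.13%. The 6 were Fosb (log2 fold change 4.16, SE 1.497), Junb (2.78, SE 0.82), Egr1 (2.70, SE 1.14), Fos (2.60, SE 1.10), Ier2 (1.78, SE 0.56) and Jun (1.18, SE 0.44), with unadjusted p from 0.00788 for Junb to 0.0428 for Fos. Jun was the member whose groups did not overlap, which held on the higher side for 1.95% of all genes. Its exact two-sided permutation p was 0.02857, the smallest that 4 against 4 libraries allow, and 0.571 when adjusted over the 40 tests of 10 members in 4 comparisons. The same test, run on mean log2 CPM, gave unadjusted p of 0.0571 for Junb and Ier2, 0.2 for Fos, 0.343 for Egr1 and 0.486 for Fosb. Atf3 (0.82, SE 0.89), Nr4a1 (0.49, SE 0.79), Nr4a2 (-0.17, SE 0.63) and Nr4a3 (-0.87, SE 0.67) did not pass before adjustment.

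The library labelled HSCR proximal 1 carried much of this difference. Without it the median of the members was 0.60, 6 were above 0 and 2 passed p under 0.05 before adjustment, Junb (1.84, SE 0.66) and Ier2 (1.19, SE 0.48), each with an adjusted p of 0.845 by edgeR. Fosb moved from 4.16 to 1.24, Egr1 from 2.70 to 0.61 and Fos from 2.60 to 1.10, and Atf3 turned from 0.82 to -0.64. Without HSCR proximal library 2 the median was 1.60, 9 members were above 0 and the same 6 passed, and with mitochondrial genes left out the median was 1.51 and the same 6 passed. Without WT proximal library 1, the highest in mitochondrial share, 5 passed (all but Jun). Junb and Ier2 were also the 2 that passed without WT proximal library 2 and without WT proximal library 4, and without WT proximal library 3 they passed with Jun and Fosb. Within libraries 1 and 2 the median was 1.83 (0 members under 0.05). Within libraries 3 and 4 it was 1.06 (5 members under 0.05, all 10 above 0), where both WT libraries and 1 of the 2 HSCR libraries carry the same name prefix. That fit called 0.3% of all genes and no member, where the main fit called 0% of genes. The share of all genes under 0.05 before adjustment was not taken for it, so its 5 members cannot be set beside the 6 of the main fit. The number of calls depended on the test. DESeq2 called Junb (adjusted p = 0.0260) among 1.14% of all genes, and edgeR's likelihood ratio test with 4 factors of unwanted variation estimated from the residuals (RUVr) called 7 members among 20.7% of all genes. Those 7 were Fos, Fosb, Jun, Junb, Egr1 and Ier2 on the higher side and Nr4a3 on the lower side, with adjusted p from 4.65e-08 to 0.0147. Their adjusted p ran up to 1.00 over the other alternatives. The RUVr factors take up spread within groups, so the p values of that test may be too small.

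The distal colon of HSCR mice gave log2 fold changes below 0 for all 10 members, with a median of -1.27 against 0.04 over the 17059 genes tested. No gene was called by edgeR (0%). Before adjustment 1 member passed p under 0.05, Nr4a3 (-2.49, SE 0.60, adjusted p = 1.00 by edgeR), on the side where 1.76% of all genes did. It was also the sole member whose distal groups did not overlap, as held on the lower side for 1.15% of all genes. Its exact permutation p was 0.02857, and 0.571 when adjusted. Atf3 (-2.00, SE 0.94), Nr4a1 (-2.19, SE 1.13), Fosb (-1.86, SE 1.47) and Fos (-1.43, SE 1.43) had large differences with large errors. WT distal library 4 set the direction for 6 of the 10 members. Without it Fosb read 0.45, Jun 0.71, Junb 0.24, Nr4a1 0.18, Nr4a2 0.19 and Ier2 0.06, Fos, Egr1 and Atf3 were at -0.11, -0.07 and -0.34, and the median was 0.12. Nr4a3 was then at -2.01 (SE 0.58, adjusted p = 0.992 by edgeR), and it was under 0.05 before adjustment in each of the 8 fits without 1 library. Without WT distal library 2, Nr4a1 and Atf3 passed before adjustment beside Nr4a3, and without WT distal library 3, Atf3 did. Without the library labelled HSCR distal 1 all 10 stayed below 0, with a median of -1.43 and Nr4a3 at -2.22 (SE 0.59). Within libraries 1 and 2, 6 members were above 0 (median 0.17), and within libraries 3 and 4, which share 1 name prefix here, all 10 were below 0 (median -1.73). DESeq2 called Nr4a3 (adjusted p = 0.0351) among 0.129% of all genes, and the RUVr test called Nr4a3 (adjusted p = 3.03e-05) among 8.66%. The adjusted p of Nr4a3 ran from 3.03e-05 to 1.00 over all alternatives.

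**Figure D3:**
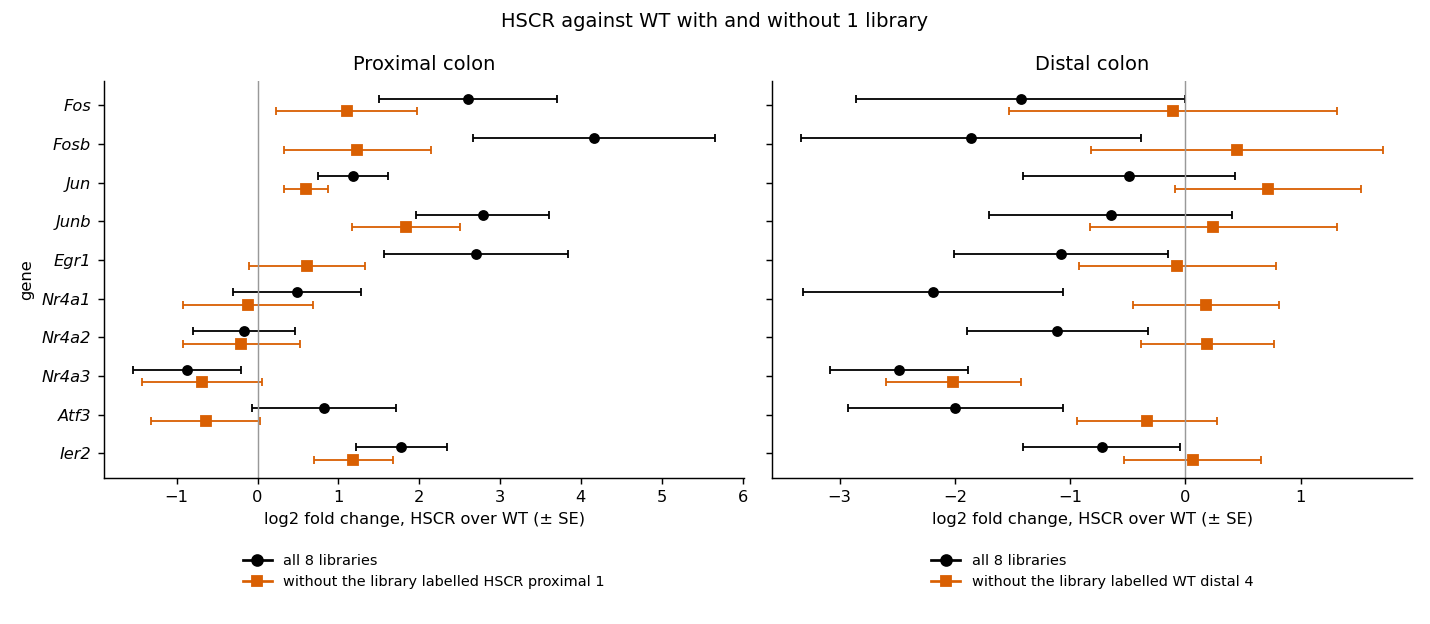
Log2 fold changes of HSCR over WT, with standard errors, for the 10 genes in the proximal and the distal colon. Black circles use all 8 libraries and orange squares leave out the library labelled HSCR proximal 1 or WT distal 4. Fosb moves from 4.16 to 1.24 in the proximal colon and from -1.86 to 0.45 in the distal colon, and Nr4a3 stays below 0 in both.

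Within WT mice the distal colon was compared with the proximal colon. All 10 members were higher in the distal colon by mean, with a median log2 fold change of 1.70 against 0.03 over 16566 genes tested, and no member was among the 3 genes called by edgeR (0.0181% of genes; Pitx1, Tnnt2 and A630023A22Rik, the last of them lower in the distal colon). Before adjustment Fosb (4.30, SE 1.23), Junb (2.76, SE 1.03), Egr1 (1.98, SE 0.84), Ier2 (1.61, SE 0.67) and Nr4a3 (1.32, SE 0.56) passed p under 0.05, as did 3.17% of all genes on that side. Their groups overlapped. Without WT distal library 4, 7 of 10 were above 0 (median 0.84), Fosb alone passed before adjustment (1.99, SE 0.72), and Nr4a1, Nr4a2 and Atf3 turned to -0.57, -0.39 and -0.41. Leaving out WT proximal library 2, 3 or 4 also left Fosb alone under 0.05, and leaving out WT distal library 3 left Fosb, Junb and Nr4a3. With mitochondrial genes left out the same 5 members passed. Libraries 1 and 2 gave a median of -0.05 and libraries 3 and 4 a median of 2.92, where the WT proximal libraries carry 1 name prefix and the WT distal libraries the other, so that segment and prefix cannot be told apart. DESeq2 called Fosb (adjusted p = 0.00434) among 0.290% of all genes, and the RUVr test called 7 members among 17.1%, namely Fos, Fosb, Jun, Junb, Egr1, Nr4a3 and Ier2. The adjusted p of Fosb was up to 1.00 under other alternatives.

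Within HSCR mice the distal colon stood below the proximal colon by mean for all 10 members, with a median of -0.92 against -0.04 over 17086 genes. None passed p under 0.05 before adjustment, where 0.778% of all genes did on that side, and no gene was called by edgeR (0%), while DESeq2 called 5 genes and the RUVr test 600, none of them a member. This comparison rests on the libraries labelled HSCR proximal 1 and HSCR distal 1, whose Hoxd13 went against their segment labels. Without both, 5 members were above 0 and 5 below, with a median of 0.03, as against a median of 0.10 without the library labelled HSCR proximal 1 alone. Without HSCR proximal library 2 the median was -1.17, and Atf3 passed before adjustment both then and without HSCR proximal library 4.

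A genotype by segment term tested whether HSCR and WT differed unequally in the distal and proximal colon. It was below 0 for all 10 members, with a median of -2.72 on the log2 scale against -0.05 over 18619 genes. Fosb (-6.00, SE 2.26), Egr1 (-3.77, SE 1.56), Junb (-3.39, SE 1.44) and Ier2 (-2.49, SE 0.95) passed p under 0.05 before adjustment, as did 0.843% of all genes on that side. The adjusted p was 1.00 for every member by edgeR and no gene was called (0%), with 2 genes called by DESeq2 and 721 by the RUVr test, none of them a member. Without the library labelled HSCR proximal 1 and without WT distal library 4, the median was -0.75, 6 members were below 0 and none passed, and none passed without either of them alone. In the other direction, 8 members passed without HSCR proximal library 2 (median -3.07), 7 without HSCR distal library 3 (median -3.285) and 6 without WT proximal library 1 (median -2.905). Over all genes tested the medians in these fits were 0.016, -0.102 and -0.045, and no gene was called in them (0%). The share of all genes that passed was not taken for these fits, so their counts cannot be set beside the 0.843% of the main fit. Without the libraries labelled HSCR proximal 1 and HSCR distal 1, all 10 were below 0 with a median of -1.99 and none passed.

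Nr4a3 was compared by genotype over all 16 libraries, since this needs no segment label. The comparison was added after its values were seen. It counts proximal and distal libraries as separate, so its p values may be too small if they share mice. WT libraries ran from 6.05 to 55.8 CPM with a median of 14.3, and HSCR libraries from 1.59 to 13.4 CPM with a median of 5.27. The 4 highest libraries were WT, and 7 of 8 WT and 1 of 8 HSCR libraries (HSCR proximal library 4) lay above the median of all 16. WT libraries averaged 20.4 ± 16.6 CPM, and HSCR libraries 5.78 ± 3.81 CPM (mean ± SD over 8 libraries each). The log2 fold change was -1.80 (SE 0.49, adjusted p = 0.221 by edgeR). It was the sole member under 0.05 before adjustment, where 5.82% of all genes were on the lower side, and no gene was called (0%), whereas DESeq2 called Nr4a3 at an adjusted p of 0.0177 and 314 genes in all. Over the 16 fits without 1 library each, the fold change lay between -2.10 and -1.42 and the unadjusted p between 0.000573 and 0.00754, the last without WT distal library 4, with adjusted p from 0.203 to 0.417. Without the library labelled HSCR proximal 1, Atf3 passed as well on the lower side, and without WT distal library 4, Jun, Fosb and Ier2 passed on the higher side.

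Markers of neurons, glia and epithelium also differed by genotype. Over 8 against 8 libraries, all 9 neuron markers were below 0 (median -1.95) and 5 passed p under 0.05 before adjustment, and 5 of 6 glial markers were below 0 (median -1.50) and 4 passed, among them S100b (-2.54, SE 0.61), Gfap (-2.44, SE 0.95) and Sox10 (-1.75, SE 0.51). All 10 epithelial markers were above 0 (median 2.203) and 4 passed. Of all 16636 genes tested, 9340 were above 0, and 5.82% passed on the lower side and 5.45% on the higher side. The 6 glial markers summed to 339 to 772 CPM in WT proximal and 71.2 to 358 CPM in HSCR proximal libraries, and to 137 to 464 CPM in WT distal and 44.7 to 246 CPM in HSCR distal libraries, with none at 0. The 10 epithelial markers summed to 48.6 to 3589 CPM, 241 to 15910 CPM, 161 to 2377 CPM and 138.5 to 5886 CPM in the same order of groups. The 9 neuron markers summed to 555 to 3027 CPM in WT proximal and 60.3 to 1000 CPM in HSCR proximal libraries, and to 81.0 to 1827 CPM in WT distal and 20.8 to 836.5 CPM in HSCR distal libraries, with none at 0 in any library. Nr4a3 was highest in WT distal library 4, with 1298 CPM of neuron markers, and lowest in HSCR proximal library 2, with 102.9 CPM of them. WT distal library 1, with 81.0 CPM of neuron markers, had the second highest Nr4a3 at 32.8 CPM. The library labelled HSCR distal 1, whose Hoxd13 went against its label, held 836.5 CPM of neuron markers and the second lowest Nr4a3 at 1.90 CPM. These pairs thus went both ways. In bulk tissue, fewer cells of a type and less RNA per cell cannot be told apart. The part of neuron, glial or epithelial content in the level of Nr4a3 was not tested.

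**Figure D4:**
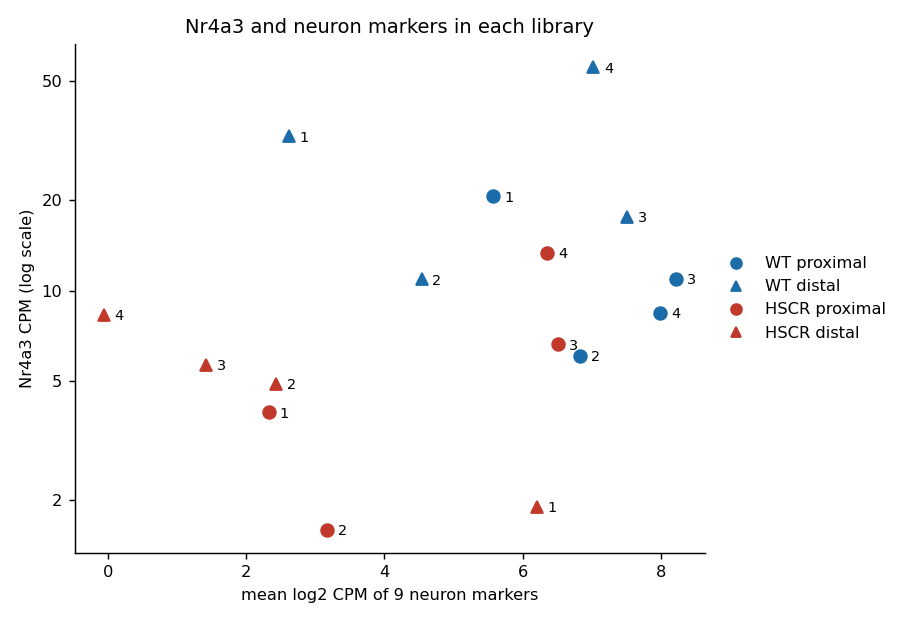
Nr4a3 CPM on a log axis against the mean log2 CPM of 9 neuron markers, 1 point per library with its number, coloured by genotype and shaped by labelled segment. WT distal library 1 pairs 32.8 CPM of Nr4a3 with few neuron transcripts, and the library labelled HSCR distal 1 pairs 1.90 CPM with many. The highest Nr4a3 (55.8 CPM, WT distal library 4) goes with many and the lowest (1.59 CPM, HSCR proximal library 2) with few.

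The members moved together within groups. After each group's mean was taken away, the 45 pairs of members had a median Pearson correlation of 0.74 over 16 libraries (0.30 to 0.98), and 0.58 without the library labelled HSCR proximal 1 and WT distal library 4. Nr4a2 and Nr4a3 correlated with each other at 0.78 and with the other 8 members at a median of 0.52. The libraries are the same for every pair and share depth and tissue content, so these values are a description.

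The genes most alike the members' mean in this within-group pattern, among 15183 genes with at least 1 CPM on average, were led by 4 feedback and early response genes. They were Dusp1, a phosphatase that switches off MAP kinases (r = 0.94), Ccn1, a matricellular protein (0.93), Socs3, an inhibitor of cytokine signalling (0.92), and Zfp36, which speeds the decay of AU-rich mRNAs (0.92). Pde3b (0.91), Gpc4 (0.91), Pcdhgc4 (0.91), Reep3 (0.91), Ppp1r15a (0.90) and Slc6a9 (0.90) followed. Dusp1 ranged from 23.3 CPM in HSCR proximal library 2 to 862 CPM in WT distal library 4, and Ccn1 from 9.15 CPM in HSCR distal library 2 to 1416 CPM in WT distal library 4.

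**Figure D5:**
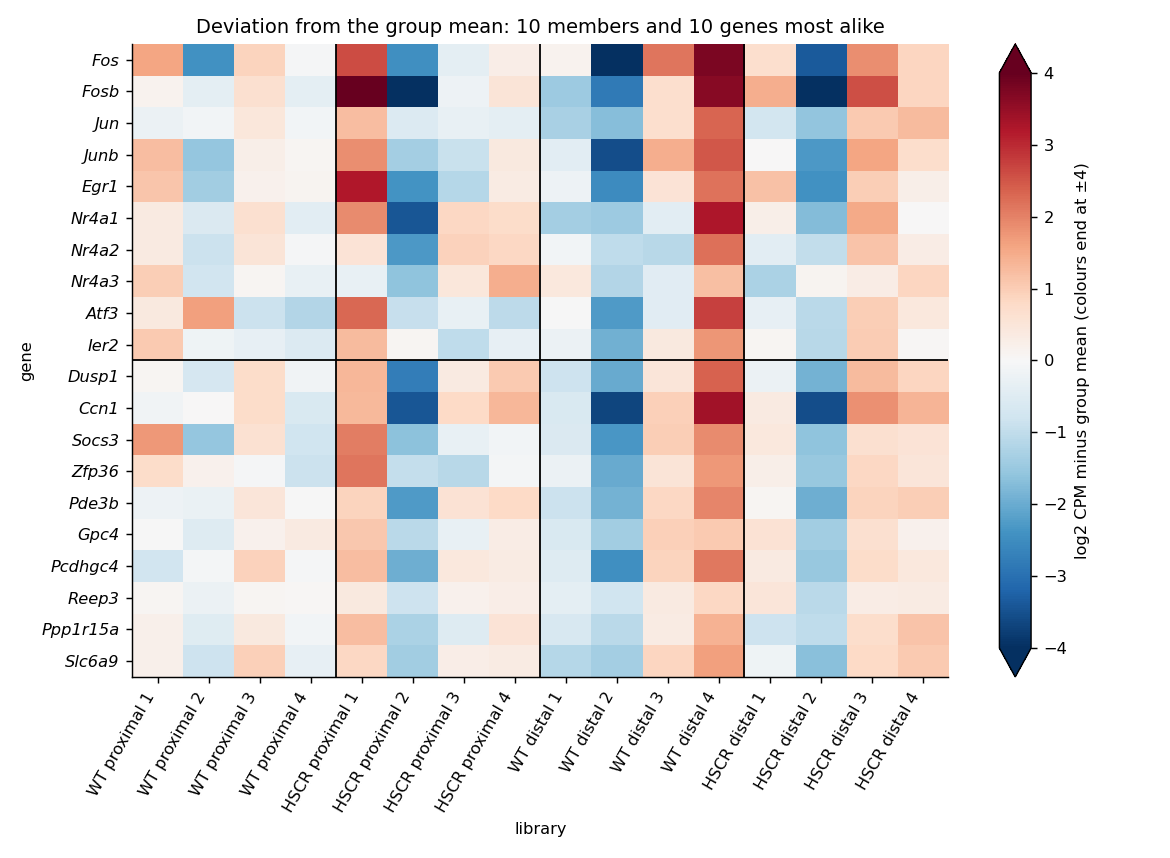
Log2 CPM minus the mean of its group for the 10 members (above the line) and the 10 genes most alike (below it) in the 16 libraries, with colours ending at ±4. Libraries numbered 2 are mostly blue (lower than their group), and WT distal 4 is red in every row.

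Other genes of the same response were read from lists. Of 31 tested immediate early transcripts beyond the members, 17 (54.8%) correlated with the members' mean above 0.5, with a median of 0.55 against 0.13 and 19.6% over all genes. Rhob, a small GTPase, was the most abundant of them (mean 415 CPM, r = 0.82), ahead of Ccn1 (256 CPM). In the proximal colon 26 of 31 had fold changes above 0 (median 0.56), where 8871 of all 16664 genes did, and 4 passed p under 0.05 before adjustment on the higher side, where 2.48% of all genes did, Socs3 (2.13, SE 0.92), the kinase Sgk1 (1.96, SE 0.60), Btg2 (1.57, SE 0.48) and Bhlhe40 (1.26, SE 0.49). Without the library labelled HSCR proximal 1, Sgk1 (2.28, SE 0.52) and Btg2 (0.99, SE 0.35) were the 2 that passed and Socs3 was at 0.96 (SE 0.76), and without HSCR proximal library 2, 10 passed. In the distal colon 20 of 31 were below 0 (median -0.24), where 7870 of all 17059 genes were, and none passed, with Arc (-1.90, SE 0.92) and Klf2 (-1.43, SE 0.74) largest. Sgk1 did not share the within-group pattern (r = -0.35).

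Among the 10 phosphatase, Sprouty and mRNA decay genes, which dampen the response, 5 correlated above 0.5 (median 0.44). In the proximal colon 8 were above 0 and 2 passed before adjustment, Zfp36 (2.04, SE 0.76) and Dusp5 (1.45, SE 0.51), while Dusp1 (1.36, SE 0.70) did not, beside 2.48% of all genes. Without the library labelled HSCR proximal 1 none passed, with Zfp36 at 0.75 (SE 0.44) and Dusp5 at 1.26 (SE 0.56), and without HSCR proximal library 2, Dusp1, Dusp5, Spry2 and Zfp36 passed. All 10 were below 0 in the distal colon, with Dusp4 (-1.002, SE 0.51) and Dusp1 (-0.94, SE 0.91) largest and none under 0.05. Zfp36l1, which was the most abundant (mean 301 CPM), had 0.31 (SE 0.43) and -0.34 (SE 0.32).

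The AP-1 partners that were not members behaved differently: none of 9 correlated above 0.5 and their median was 0.04. Jund (mean 156 CPM, r = 0.21) and Fosl2 (81.9 CPM, r = 0.41) were the most abundant, and their proximal fold changes were -0.47 (SE 0.41) and 0.41 (SE 0.26). Batf2 (1.41, SE 1.27) and Batf3 (0.75, SE 1.52) in the proximal colon and Maff (-0.57, SE 0.71) and Batf3 (0.33, SE 1.60) in the distal colon had the largest differences, at mean levels of 1.48, 1.17 and 22.4 CPM. In the proximal colon Mafg (-0.67, SE 0.26) was the 1 of 9 that passed before adjustment, on the lower side, where 4.13% of all genes did, and it did not pass without the library labelled HSCR proximal 1 or without HSCR proximal library 2. In the distal colon none did. Of the 5 other Egr and Nab genes, 3 were above 0 in the proximal colon and none were without the library labelled HSCR proximal 1. Nab2, a corepressor of Egr1, passed before adjustment on the lower side in the proximal colon (-1.06, SE 0.32), also without the library labelled HSCR proximal 1 and without HSCR proximal library 2, Nab1 stood at -0.35 (SE 0.30), and the scarce Egr4 and Egr3 at 2.63 (SE 2.15) and 1.34 (SE 1.29). In the distal colon Nab1 (-0.60, SE 0.33) and Egr3 (-0.54, SE 0.96) were largest and none of 4 passed.

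The 14 upstream kinases and factors had a median correlation of 0.16, and none passed before adjustment in either genotype comparison, although Mapk3 did on the lower side in the proximal colon without HSCR proximal library 2. Srf, serum response factor itself, had the highest correlation (0.69, mean 179 CPM) and Mapk3 the lowest (-0.66, mean 231 CPM). Crem (-0.83, SE 0.38) and Mrtfa (0.55, SE 0.31) in the proximal colon and Crem (-1.05, SE 0.47) and Creb1 (-0.50, SE 0.29) in the distal colon had the largest differences. The 8 heat shock genes, induced by protein damage rather than by growth signals, had a median correlation of 0.57. Of them 5 (62.5%) lay above 0.5, as did 54.8% of the other immediate early transcripts and 19.6% of all genes. Likeness to the members was thus not particular to the immediate early list. Hspa1a and Hspa1b, near-identical genes whose reads cannot be split with certainty, read 537 and 1499 CPM in WT distal library 4 but 46.2 and 142 CPM in the library labelled HSCR proximal 1, where WT proximal libraries had 28.2 to 58.9 and 56.4 to 241 CPM. Their distal fold changes were -1.67 (SE 1.13) and -1.64 (SE 1.08). In the proximal colon 7 of 8 were below 0 and 2 passed before adjustment on the lower side, Hsph1 (-1.16, SE 0.32) and Hsp90aa1 (-0.79, SE 0.30), beside 4.13% of all genes. Both also passed without the library labelled HSCR proximal 1 and without HSCR proximal library 2, whereas the most abundant, Hspa8 and Hspb1 (means of 1143 and 563 CPM), stood at -0.14 (SE 0.43) and -0.07 (SE 0.83).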

How the data were processed

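LMMP RNA was selected with poly-T beads. The authors aligned reads to build mm39 with HISAT2 2.2.1 and deposited read counts per gene from featureCounts 2.0.6 beside FPKM values computed from the same counts. The release of the GENCODE gene model and the use of strand in counting are not given in the sources used here, so overlapping and antisense genes may share reads. Groups came from sample titles. Nothing ties libraries to separate mice beyond the labels, and p values measure the spread between these libraries only.

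Genes were filtered with filterByExpr and tested on the deposited counts with edgeR 4.0.16 (R 4.3.3), TMM scaling and the quasi-likelihood F test, with the 4 libraries of each group in the comparison (all 16 for the genotype by segment term), Benjamini-Hochberg adjustment over all genes tested and a threshold of 0.05. The SE is the log2 fold change divided by the root of F. CPM are counts relative to the TMM-scaled library total, and log2 CPM used a prior count of 0.5. Spread was split by sums of squares of log2 CPM, and correlations used log2 CPM minus the group mean. Exact tests enumerated all 70 assignments of 4 against 4 libraries. Shares of all genes under 0.05 before adjustment were taken for the main fits only, so counts of members in the alternative fits stand without them. The authors used edgeR's likelihood ratio test with RUVr factors. A version of it was run here as an alternative, with 4 factors computed directly from the deviance residuals of the group fit over all genes tested. Such factors take up spread within groups, so the p values of this test may be too small. Also run were DESeq2 1.42.0, its size factors, no filter, a replicate block, a term for libraries 1 and 2 against 3 and 4, mitochondrial genes left out and each library left out in turn. The comparison of 8 against 8 libraries and the fits without the libraries of discordant Hoxd13 or with high early gene levels were chosen after seeing the data.

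The members and lists were chosen with earlier results of these data known. Beside the members, the text names the 2 most abundant genes of each list, the 2 with the largest fold change in each genotype comparison, and the 10 genes most alike the members' mean. Btg2, Bhlhe40, Mafg, Spry2, the glial markers, Hoxd13 and the genes called between WT segments were named after their values were seen. Promoter sequences are from RefSeq on GRCm38.p6, a build other than that of the counts. The fits were tested on simulated counts with the same dispersion for every gene and no effect shared within a library. That setting is simpler than these data, so it does not show how the fits behave with outlying libraries. Figures were drawn with matplotlib 3.10.9.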

Additional observations from a re-analysis of the deposited data

Results flagged for a closer look

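Among the 40 sets of 4 libraries (10 genes in 4 groups), 2 held a library set apart from the other 3 by Dixon's test, where chance gives about 1 in 20. Jun in the library labelled HSCR proximal 1 read 767.1 CPM, and its gap to the next library was 0.852 of the group's range. Nr4a2 in HSCR proximal library 2 read 1.348 CPM on the low side, with a gap of 0.875 of the range.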

How the results depend on the processing

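The sign of Nr4a3 in the distal colon and over all 16 libraries was kept in every alternative run. The fold changes below are on the log2 scale, and the cause of the reversals was not tested. No member was called by edgeR's quasi-likelihood test under any alternative. The lowest count of a member in a library was 18 (Fosb), and the part of depth in the errors was not tested.

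With RUVr factors Nr4a1 stood at -0.193 in the proximal colon and Nr4a2 at 0.187 between HSCR segments. Both Hoxd13-discordant libraries left out gave 0.378 for Fos, 1.125 for Fosb, 0.745 for Jun, 0.370 for Junb and 0.096 for Nr4a2 between HSCR segments. Libraries 1 and 2 alone gave, in the distal colon, 0.544 for Fos, 1.000 for Fosb, 0.313 for Jun, 0.535 for Junb, 0.410 for Egr1 and 0.031 for Ier2. They gave, between WT segments, -0.175 for Fos, -0.465 for Jun, -0.850 for Nr4a1, -0.014 for Nr4a2, -1.187 for Atf3 and -0.089 for Ier2, and 0.336 for Nr4a3 between HSCR segments. Libraries 3 and 4 alone gave 0.165 for Nr4a2 and 0.081 for Nr4a3 in the proximal colon. Between HSCR segments they gave 0.583 for Fos, 1.261 for Fosb, 1.217 for Jun, 0.683 for Junb, 0.050 for Egr1, 0.051 for Nr4a2, 0.336 for Atf3 and 0.424 for Ier2.

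Same-numbered libraries correlated at -0.215 to 0.425 in their deviations from the group means. No comparison had every pair above 0.1 or every library closest to its own number. Only libraries numbered 1 and those numbered 2 share a code in their names. A rule over every number therefore cannot decide whether the coded libraries were paired. Library 2 was closest to its own number between segments in WT (0.096) and HSCR (0.288), but not between genotypes. Library 1 was so between WT segments only (0.419). The main fits held no term for library number. With the replicate block Nr4a1 was at -0.102 in the proximal colon, Fos at 0.006 and Junb at 0.044 in the distal colon and Nr4a2 at 0.126 between HSCR segments, and 1 gene in place of 3 was called between WT segments. Members under 0.05 before adjustment numbered 3 in place of 6 in the proximal colon (Fos, Junb and Ier2) and 2 in place of 5 between WT segments (Egr1 and Nr4a3), and Nr4a3 stayed the 1 member in the distal colon and over 8 against 8 libraries.

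Without 1 library each, the proximal values ranged from -0.114 to 0.889 for Nr4a1, -0.384 to 0.189 for Nr4a2 and -0.643 to 1.629 for Atf3. Distal values ranged from -2.572 to 0.448 for Fosb, -0.964 to 0.714 for Jun, -1.196 to 0.242 for Junb, -2.807 to 0.179 for Nr4a1, -1.550 to 0.188 for Nr4a2 and -1.097 to 0.061 for Ier2. Between WT segments they ranged from -0.572 to 2.147 for Nr4a1, -0.391 to 1.192 for Nr4a2 and -0.409 to 2.020 for Atf3. Between HSCR segments they ranged from -1.682 to 0.355 for Fos, -2.453 to 1.176 for Fosb, -0.563 to 0.510 for Jun, -1.245 to 0.249 for Junb, -2.220 to 0.255 for Egr1, -0.525 to 0.194 for Nr4a2 and -0.686 to 0.346 for Nr4a3.

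Genes called numbered 0 in the proximal, distal, HSCR segment, interaction and 8 against 8 comparisons and 3 between WT segments. DESeq2 called 190, 22, 5, 2, 314 and 48, and the RUVr test 3453, 1478, 600 and 721 in the first 4 and 2839 between WT segments. A term for libraries 1 and 2 against 3 and 4 gave 4 in the proximal colon. Libraries 3 and 4 alone gave 52 in the proximal colon, 144 in the distal colon and 1 between WT segments, where libraries 1 and 2 alone and a fit of all 16 libraries gave 0. Leaving out 1 library gave 0 to 2 between WT segments and 0 to 19 over 8 against 8 libraries, the last without WT distal library 1.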
